A study of Mus musculus with 12 samples.

Results

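The 6 peroxiredoxin genes of the mouse, Prdx1 to Prdx6, were followed in RAW264.7 cells. They were chosen by gene symbol, and 6 of the 25192 genes in the count table carry 1 of these symbols. RAW264.7 is an established macrophage-like line from a mouse tumour induced by Abelson leukaemia virus, so a response in it is that of 1 transformed line. Poly(A) RNA of the line was sequenced in 12 libraries, 4 per group. In the ferulic acid plus LPS group, 12 h with 10 µM ferulic acid, a phenolic compound of plants, preceded 24 h with LPS. The LPS group had LPS alone, the lipopolysaccharide of the bacterial outer membrane, at the same 1 µg/mL for 24 h. Control cells received neither agent. No group had ferulic acid without LPS. The title of the series names ferulic acid and peroxiredoxin 1, the product of Prdx1. Nothing in the labels tells whether separate cultures were used within a group, so p-values measure only a spread between libraries that may be technical.

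The genes lie on chromosomes 4 (Prdx1), 8 (Prdx2), 19 (Prdx3 and Prdx5), X (Prdx4) and 1 (Prdx6). The length behind each FPKM value was 3043 bases for Prdx1, 3050 for Prdx2, 1478 for Prdx3, 2106 for Prdx4, 2139 for Prdx5 and 4804 for Prdx6. The identifiers in the table are ENSMUSG00000028691, ENSMUSG00000005161, ENSMUSG00000024997, ENSMUSG00000025289, ENSMUSG00000024953 and ENSMUSG00000026701 for Prdx1 to Prdx6.

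Peroxiredoxins are thiol peroxidases. A cysteine in the active site takes the oxygen from hydrogen peroxide, an organic hydroperoxide or peroxynitrite, and the oxidised enzyme is then reduced again, for most members by thioredoxin. In macrophages they sit beside the oxidative burst that LPS and related signals prime, and peroxiredoxin 1 has also been reported outside the cell as a ligand of the LPS receptor TLR4. Prdx1 and Prdx2 encode typical 2-Cys enzymes of the cytosol and nucleus, Prdx3 the mitochondrial member and Prdx4 the member of the endoplasmic reticulum and secretory route. Prdx5 encodes the atypical 2-Cys enzyme of mitochondria, peroxisomes and cytosol. Prdx6 encodes the 1-Cys enzyme, which is reduced through glutathione and also has phospholipase activity.

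Prdx5, Prdx1 and Prdx4 were the members with more mRNA after LPS under every scaling tried, and the sequences just upstream of their start sites are shown so that they can be read beside those changes. Each line gives the 250 bases before the RefSeq start site in build GRCm38.p6, 5′ to 3′ on the gene's own strand. Capitals mark matches to the 3 motifs searched on both strands.
Prdx1, chr4:116685349-116685598, plus strand: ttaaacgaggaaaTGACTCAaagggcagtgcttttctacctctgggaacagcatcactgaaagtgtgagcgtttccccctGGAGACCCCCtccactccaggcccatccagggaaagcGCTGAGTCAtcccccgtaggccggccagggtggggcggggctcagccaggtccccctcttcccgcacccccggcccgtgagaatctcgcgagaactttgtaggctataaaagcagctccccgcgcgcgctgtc
Prdx5, chr19:6910107-6910356, minus strand: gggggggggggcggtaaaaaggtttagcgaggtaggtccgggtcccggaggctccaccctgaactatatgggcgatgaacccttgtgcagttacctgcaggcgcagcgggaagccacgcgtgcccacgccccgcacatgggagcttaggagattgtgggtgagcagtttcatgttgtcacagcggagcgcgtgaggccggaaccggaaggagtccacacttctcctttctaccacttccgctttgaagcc
Prdx4, chrX:155338461-155338710, minus strand: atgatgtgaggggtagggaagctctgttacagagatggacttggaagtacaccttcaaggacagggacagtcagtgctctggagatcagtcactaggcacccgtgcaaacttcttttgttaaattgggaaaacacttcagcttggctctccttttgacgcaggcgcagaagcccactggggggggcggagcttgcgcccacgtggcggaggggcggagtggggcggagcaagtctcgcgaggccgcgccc

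The window searched ran from 250 bases before to 50 bases after the start site, and RefSeq windows were matched for 5 of the 6 genes. In the Prdx1 window the AP-1 motif TGANTCA matched at -237 to -231 and at -131 to -125, in each place on both strands because the motif is its own reverse complement. The core of the antioxidant response element, the site of the factor NRF2, is TGACNNNGC, and it matched on the minus strand at -133 to -125 as TGACTCAGC, so it contains the second AP-1 match. An NF-kB motif matched on the minus strand at -170 to -161 of Prdx1. Of 32851 RefSeq windows of the same length, 12.4% held the antioxidant response element core, 7.81% the AP-1 motif and 4.51% the NF-kB motif. The windows of Prdx2, Prdx3, Prdx4 and Prdx5 held 0 matches to these 3 motifs, which says only that these letters are not in those windows.

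Library totals ran from 32548423 to 49961581 counts. Principal components were taken from log2 CPM (counts per 1e6) with TMM scaling, which is described below. The first component, with 77.8% of the variance, separated control from LPS-treated libraries. On the second component, with 6.81% of the variance, ferulic acid plus LPS libraries 1 and 4 scored -44.0 and -76.6, libraries 2 and 3 scored 25.6 and 7.56, and LPS libraries scored 12.5 to 41.3. Libraries 1 and 4 therefore stood apart from libraries 2 and 3 of their own group. For Prdx1 and Prdx4 the results on ferulic acid below are also given without each of these pairs. The LPS labels were checked with Tnf, the gene of tumour necrosis factor, which had 124 to 188 FPKM (fragments per kilobase of gene length and per 1e6 fragments) in ferulic acid plus LPS, 216 to 327 in LPS and 11.2 to 15.8 in control libraries. The 10 macrophage markers examined, such as Cd68 and Csf1r, were all present, with summed FPKM of 1871 to 2415 in ferulic acid plus LPS, 2170 to 2372 in LPS and 4159 to 4540 in control libraries. Lyz2 alone had a mean of 245 FPKM in LPS and 2781 FPKM in control libraries. Single markers went both ways. With counts scaled by the library total, 3 of the 10 were higher and 5 lower in LPS at an adjusted p under 0.05 in edgeR. Of all genes tested, 17.5% were higher and 59.0% lower by that rule. Among markers of fibroblasts, epithelium, T cells, B cells, endothelium and neutrophils, Cd79a and S100a8 alone reached 1 FPKM, with highest values of 1.37 and 4.80.

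LPS was associated with a far larger pool of Prdx5 mRNA and with larger pools of Prdx1 and Prdx4, while the direction for Prdx2, Prdx3 and Prdx6 depended on the scaling. All levels below are in FPKM, which divides a gene's count by its length and by the library total. The lengths used equal all annotated exonic bases of each gene in GRCm38, so the order between genes depends on them. In RNA from whole cultures, fewer cells of a type and less RNA per cell cannot be told apart.

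Prdx5 had 1227, 1184, 1116 and 1070.5 FPKM in the LPS libraries 1 to 4, against 55.3, 63.1, 60.4 and 56.1 FPKM in the control libraries 1 to 4. The groups were far from overlapping, and the spread within each was small. The means were 1149.6 ± 69.7 FPKM in LPS and 58.7 ± 3.66 FPKM in control libraries (SD, n = 4 each), a ratio of 19.6. In edgeR's quasi-likelihood test with TMM scaling over 14065 genes, the log2 fold change of Prdx5 was 5.19 (SE 0.22, adjusted p = 4.09e-12), the 238th highest of all genes tested.

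Prdx1 had 991, 1215, 1039 and 1038 FPKM in the LPS libraries, against 285, 394, 369 and 316 FPKM in the control libraries. Every LPS library was above every control library. Prdx1 averaged 1071 ± 98.7 FPKM in LPS and 341 ± 49.3 FPKM in control libraries (SD, n = 4 each), a ratio of 3.14. The edgeR log2 fold change was 2.55 (SE 0.28, adjusted p = 4.91e-07).

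Prdx4, the endoplasmic reticulum member, had 115, 115, 111 and 102 FPKM in the LPS libraries, against 57.4, 80.2, 68.3 and 59.8 FPKM in the control libraries. The groups did not overlap, and control library 2 was the highest of its group. The edgeR log2 fold change was 1.64 (SE 0.22, adjusted p = 4.71e-06). The ratio of mean FPKM was 1.67, well under the fold change with TMM scaling.

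Prdx2 had 55.4, 49.8, 53.0 and 48.9 FPKM in the LPS libraries, against 62.9, 73.8, 67.6 and 60.8 FPKM in the control libraries. Every LPS library lay below every control library for this cytosolic member. The mitochondrial member Prdx3 had 63.4, 70.3, 85.0 and 69.2 FPKM in LPS and 69.3, 85.3, 80.2 and 74.5 FPKM in control libraries, and the groups overlapped. Prdx6 had 51.2, 46.6, 52.9 and 50.5 FPKM in LPS and 52.7, 57.7, 51.6 and 50.9 FPKM in control libraries, again with overlap. In FPKM, then, LPS and control did not overlap for 4 of 6 members, with 3 above and 1 below, where 78.4% of all genes tested did not overlap.

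**Figure D1:**
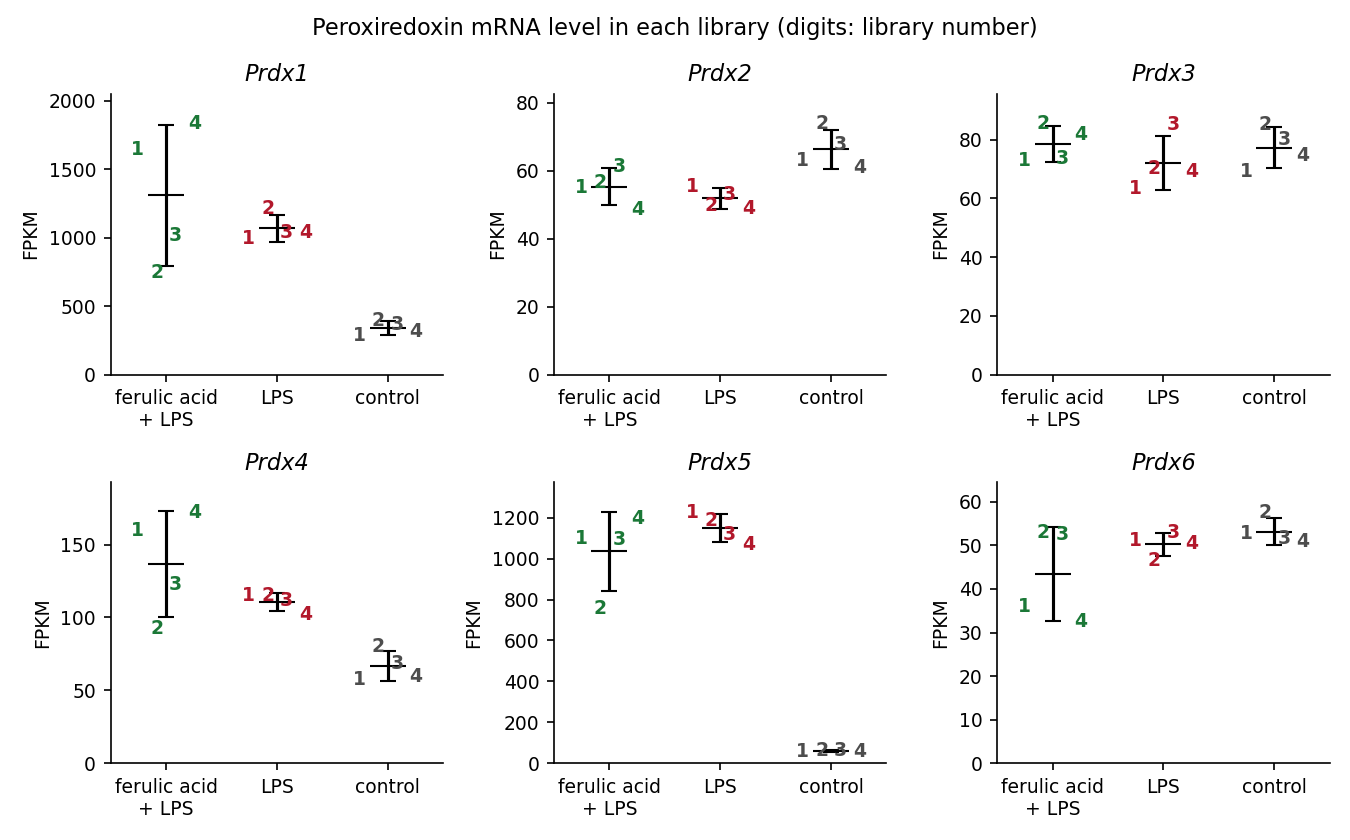
Each panel plots 1 peroxiredoxin gene. The vertical axis is FPKM from 0, digits are library numbers, and the bars are the mean ± SD of the 4 libraries of ferulic acid plus LPS, LPS and control. Prdx5 lies between 755 and 1227 FPKM in the 8 LPS-treated libraries, far above 55.3 to 63.1 FPKM in control, and ferulic acid plus LPS libraries 1 and 4 lie above the LPS libraries for Prdx1 and Prdx4 and below them for Prdx6.

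With TMM scaling, 6 of 6 peroxiredoxins were called higher in LPS than in control libraries, where 73.8% of all genes tested were called in either direction and 35.6% were called higher. The log2 fold changes with TMM were 0.54 for Prdx2 (adjusted p = 0.00128), 0.79 for Prdx3 (adjusted p = 3.63e-05) and 0.82 for Prdx6 (adjusted p = 3.93e-05). These signs depend on the scaling. With counts scaled by the library total, as FPKM is, edgeR gave -0.36 for Prdx2 (adjusted p = 0.0174), -0.10 for Prdx3 (adjusted p = 0.489) and -0.08 for Prdx6 (adjusted p = 0.648). With the library total 4 of 6 members were called, 3 higher and 1 lower, against 76.6% of all genes tested. TMM instead aligns the bulk of genes. Over all genes tested the median log2 fold change was -0.10 with TMM and -0.99 with the library total. Set against that median, all 6 members lay above it under both.

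The library total is shared with a small number of abundant genes. The 50 most abundant genes held 31.8% to 35.3% of the counts in LPS and 20.5% to 21.5% in control libraries. Ribosomal protein genes held 13.9% to 16.2% in LPS and 7.62% to 9.90% in control libraries. With a library total that leaves both sets out, Prdx2, Prdx3 and Prdx6 were at 0.03, 0.27 and 0.30, none of them called, and 3 of 6 members were called, against 74.6% of all genes. With TPM, which rescales FPKM to the same sum in every library and was added after the data had been seen, limma called Prdx2 at -0.76, Prdx3 at -0.52 and Prdx6 at -0.49 lower, against 82.0% of all genes called. Prdx1, Prdx4 and Prdx5 were called higher under each of these scalings, at 1.24, 0.34 and 3.87 with TPM.

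**Figure D2:**
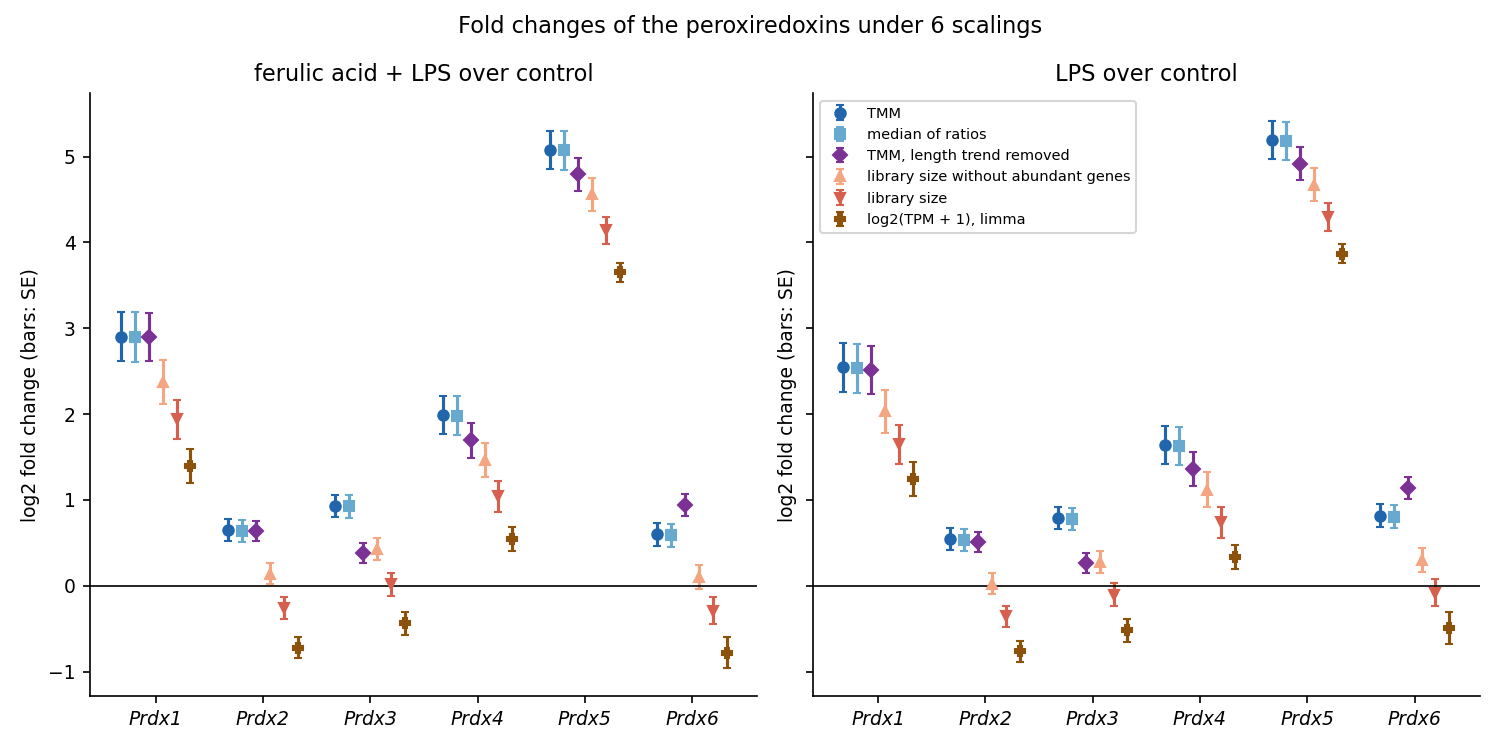
Log2 fold changes of the 6 genes, with ferulic acid plus LPS over control on the left and LPS over control on the right. Symbols are 6 scalings, bars are SE, and the horizontal line marks no change. Prdx1, Prdx4 and Prdx5 stay above the line under all 6, from 1.24 to 2.55 for Prdx1 in LPS over control, while Prdx2, Prdx3 and Prdx6 cross it.

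A ratio of 2 genes within a library does not depend on how libraries are scaled. The log2 ratio of Prdx1 to Prdx2 was higher by 2.01 in LPS than in control libraries, that of Prdx1 to Prdx3 by 1.76, that of Prdx1 to Prdx6 by 1.74 and that of Prdx1 to Prdx4 by 0.91. The log2 ratio of Prdx1 to Prdx5 was lower, with a difference of -2.63. None of these 5 ratios overlapped between LPS and control, where 78.4% of all single genes tested did not overlap in FPKM. No such share was computed for ratios between genes. The ratios of Prdx2 to Prdx3 and of Prdx3 to Prdx6 overlapped, with differences of -0.25 and -0.03, and that of Prdx2 to Prdx6 did not, with a difference of -0.27. Within libraries, Prdx5 gained on Prdx1, and Prdx1 gained on the 4 remaining members.

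The make-up of the family's mRNA was different after LPS. Prdx5 was 45.9% ± 2.14 of the summed peroxiredoxin FPKM in LPS and 8.90% ± 0.488 in control libraries (SD, n = 4 each). Prdx1 was 42.7% ± 2.42 in LPS and 51.3% ± 1.74 in control libraries, a difference of -8.62 percentage points. In an exact two-sided permutation test the p for the Prdx1 share was 0.0286, the smallest that 4 against 4 libraries can give, and 0.0857 after adjustment over the 3 comparisons. The difference did not pass the adjusted threshold. As a share of the family's counts, not divided by length, Prdx1 lay between 47.2% and 53.2% in LPS, against 52.5% to 57.1% in control libraries. On that scale the groups overlapped, and the difference was -4.80 percentage points (adjusted p = 0.171, exact permutation test). Prdx2, Prdx3, Prdx4 and Prdx6 had shares of 2.07%, 2.88%, 4.43% and 2.01% in LPS, against 10.0%, 11.7%, 9.99% and 8.08% in control libraries. Summed over the family, FPKM was 2505 ± 128 in LPS and 663 ± 77.1 in control libraries, and the family took 0.646% ± 0.0345 of all counts in LPS and 0.188% ± 0.0215 in control libraries.

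**Figure D3:**
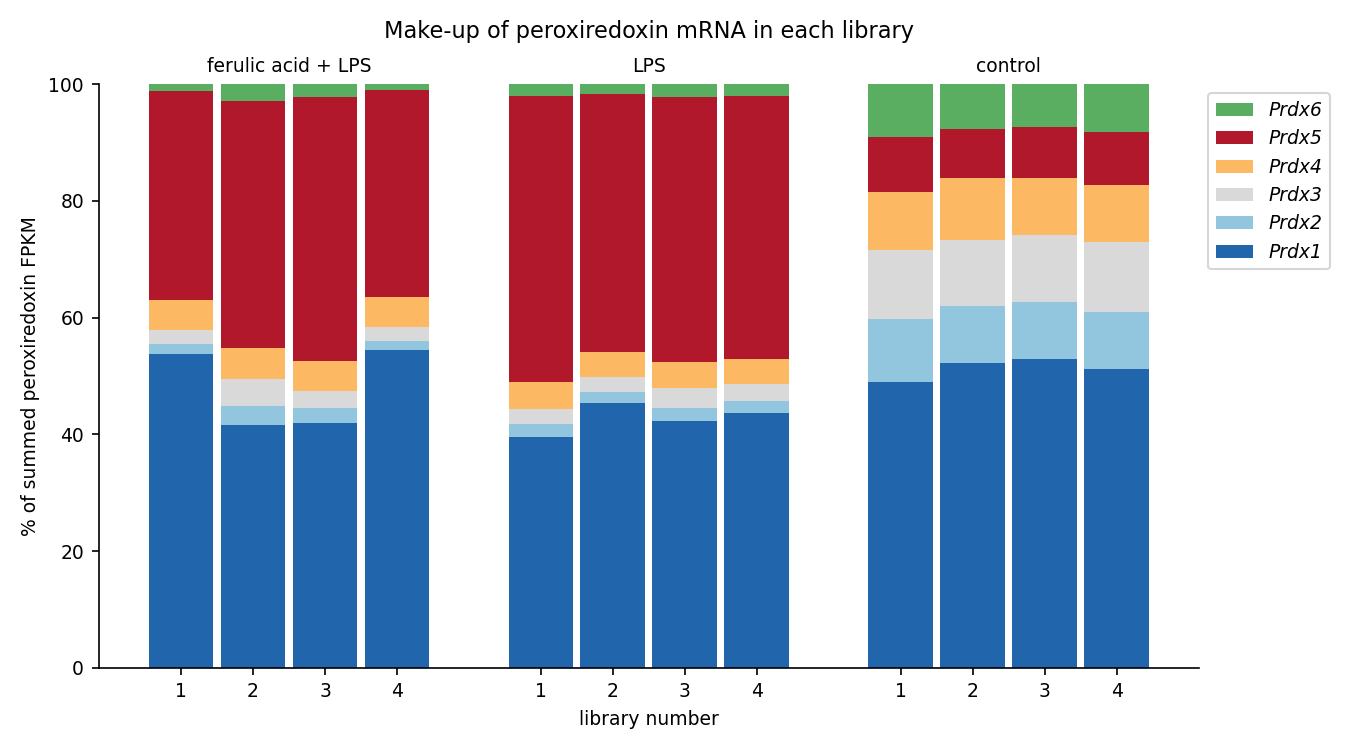
Each bar is 1 library and shows the percent of its summed peroxiredoxin FPKM that came from each gene, with ferulic acid plus LPS on the left, LPS in the middle and control on the right. Prdx5 takes 44.2% to 49.0% in LPS libraries and 8.37% to 9.48% in control libraries, and Prdx1 takes 53.7% and 54.5% in ferulic acid plus LPS libraries 1 and 4.

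In control cells Prdx1 was the most abundant member and stood alone. Its lowest library, at 285 FPKM, was above every library of the other 5 genes, whose means lay between 53.2 and 77.3 FPKM in the order Prdx3, Prdx4, Prdx2, Prdx5 and Prdx6, each overlapping its neighbour. In LPS cells the order was Prdx5, Prdx1, Prdx4, Prdx3, Prdx2 and Prdx6. There Prdx5 and Prdx1 overlapped each other, Prdx2 and Prdx6 overlapped each other, and Prdx4 and Prdx3 each stood clear of their neighbours. With ferulic acid before LPS the order was Prdx1, Prdx5, Prdx4, Prdx3, Prdx2 and Prdx6, and the same neighbours overlapped as after LPS alone. These orders depend on the gene lengths used for FPKM. In counts, Prdx1 was above Prdx5 in every LPS library, with 108865 against 94747 in LPS library 1. Prdx6, last in FPKM, held 12.6% to 15.3% of the family's counts in control libraries, above all members but Prdx1. Among all genes ranked by mean FPKM, Prdx5 was 67th in LPS and 819th in control libraries, and Prdx1 was 72nd in LPS and 148th in control libraries. Prdx4 was 507th in LPS and 716th in control libraries.

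Pretreatment with ferulic acid before LPS gave no peroxiredoxin difference that passed the edgeR test with all 4 libraries of each group. For Prdx1 and Prdx4, single libraries with ferulic acid lay both above and below all LPS libraries in FPKM. Of the 6 genes, 0 were called between ferulic acid plus LPS and LPS by edgeR, where 0.284% of all genes tested, 40 of 14065, were called. An unadjusted p under 0.05 in that edgeR test was reached by 0 of the 6, where 3236 of the 14065 genes reached it. DESeq2 also called 0 of the 6, against 7.67% of genes with an adjusted p, and with the library total edgeR called 0 of the 6 against 0.0142%. In FPKM 0 of the 6 members were free of overlap, where 6.31% of all genes were. In TPM 1 of the 6, Prdx5, was free of overlap, where 5.17% of all genes were. The count of 40 was itself unsteady and ran from 0 to 2670 as each of the 12 libraries was left out in turn, with 1415 and 2670 genes called without ferulic acid plus LPS libraries 3 and 2.

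Prdx1 had 1646, 743, 1013 and 1834 FPKM in the ferulic acid plus LPS libraries 1 to 4, against 991, 1215, 1039 and 1038 FPKM in the LPS libraries. Libraries 1 and 4 were above all LPS libraries, library 2 was below all of them and library 3 lay among them. The means were 1309 ± 515 FPKM in ferulic acid plus LPS and 1071 ± 98.7 FPKM in LPS (SD, n = 4 each), with a log2 fold change of 0.35 (95% interval -0.21 to 0.92, edgeR adjusted p = 0.437). Without libraries 1 and 4 it was -0.38, and without libraries 2 and 3 it was 0.82. The pairs were chosen from how the libraries stand apart, with these values known, so these 2 values are a description and no p is given. Library 2 was the lowest of its group for Prdx1, so leaving it out must raise the fold change. Without library 2 alone the log2 fold change was 0.58, and no p is given for the same reason. Voom quality weights, which gave library 2 the lowest weight of all 12 libraries at 0.195, gave 0.58 as well (adjusted p = 0.0374).

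Prdx4 followed the same order of libraries. It had 159.7, 92.3, 123 and 172 FPKM in the ferulic acid plus LPS libraries, against 115, 115, 111 and 102 FPKM in the LPS libraries. Libraries 1, 3 and 4 were above every LPS library and library 2 was below every one. The log2 fold change of Prdx4 was 0.35 (95% interval -0.11 to 0.81, edgeR adjusted p = 0.337). It was -0.14 without libraries 1 and 4, 0.70 without libraries 2 and 3 and 0.54 without library 2, with no p given as for Prdx1. With voom weights 3 of 6 members were called, against 24.2% of all genes. Without libraries 2 and 3 it was also 3 of 6, against 37.7%, from which nothing is read since those pairs were chosen as said. Without library 2 alone 2 of 6 were called, against 18.4%. Nothing is read from that either, since library 2 was the lowest of its group for Prdx1 and Prdx4.

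Prdx6 ran the other way. It had 35.9, 52.9, 52.5 and 32.6 FPKM in the ferulic acid plus LPS libraries, against 51.2, 46.6, 52.9 and 50.5 FPKM in the LPS libraries. Libraries 1 and 4 were below every LPS library, and libraries 2 and 3 were close to the highest LPS library. The log2 fold change of Prdx6 was -0.22 (95% interval -0.50 to 0.07, edgeR adjusted p = 0.336), and -0.43 without libraries 2 and 3. Over the 28 alternatives run it lay between -0.43 and -0.04. With voom weights 2 members were called higher and 1 lower, and the lower one was Prdx6.

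Prdx5 had 1096, 755, 1094 and 1194 FPKM in the ferulic acid plus LPS libraries, against 1227, 1184, 1116 and 1070.5 FPKM in the LPS libraries. Library 2 was below every LPS library, and libraries 1, 3 and 4 lay inside the LPS range in FPKM. In TPM, which scales FPKM to the same sum in every library, Prdx5 lay between 1657 and 2185 in ferulic acid plus LPS, against 2235 to 2407 in LPS libraries. On that scale all 4 libraries with ferulic acid lay below all LPS libraries, and limma on log2(TPM + 1) gave -0.22 (adjusted p = 0.381). The edgeR log2 fold change with TMM was -0.11 (95% interval -0.51 to 0.28, adjusted p = 0.749), and it was 0.06 without library 2. For Prdx2 the ferulic acid plus LPS libraries had 55.1, 56.4, 61.3 and 48.4 FPKM and the interval was -0.17 to 0.38. For Prdx3 they had 73.0, 85.5, 73.6 and 81.7 FPKM and the interval was -0.13 to 0.41. These intervals, on the log2 scale, leave room for differences of either sign.

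The share of counts from ribosomal protein genes differed between the same libraries. It was 21.0%, 13.0%, 16.5% and 21.2% in ferulic acid plus LPS libraries 1 to 4, against 16.2%, 15.9%, 15.4% and 13.9% in LPS libraries 1 to 4. Libraries 1 and 4, highest for Prdx1 and Prdx4 and lowest for Prdx6, had the highest shares, and library 2, lowest for Prdx1, Prdx4 and Prdx5, had the lowest. Mitochondrially encoded genes held 4.58%, 3.28%, 3.76% and 4.50% of the counts in the 4 ferulic acid plus LPS libraries. Their part in the peroxiredoxin values was not tested.

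**Figure D4:**
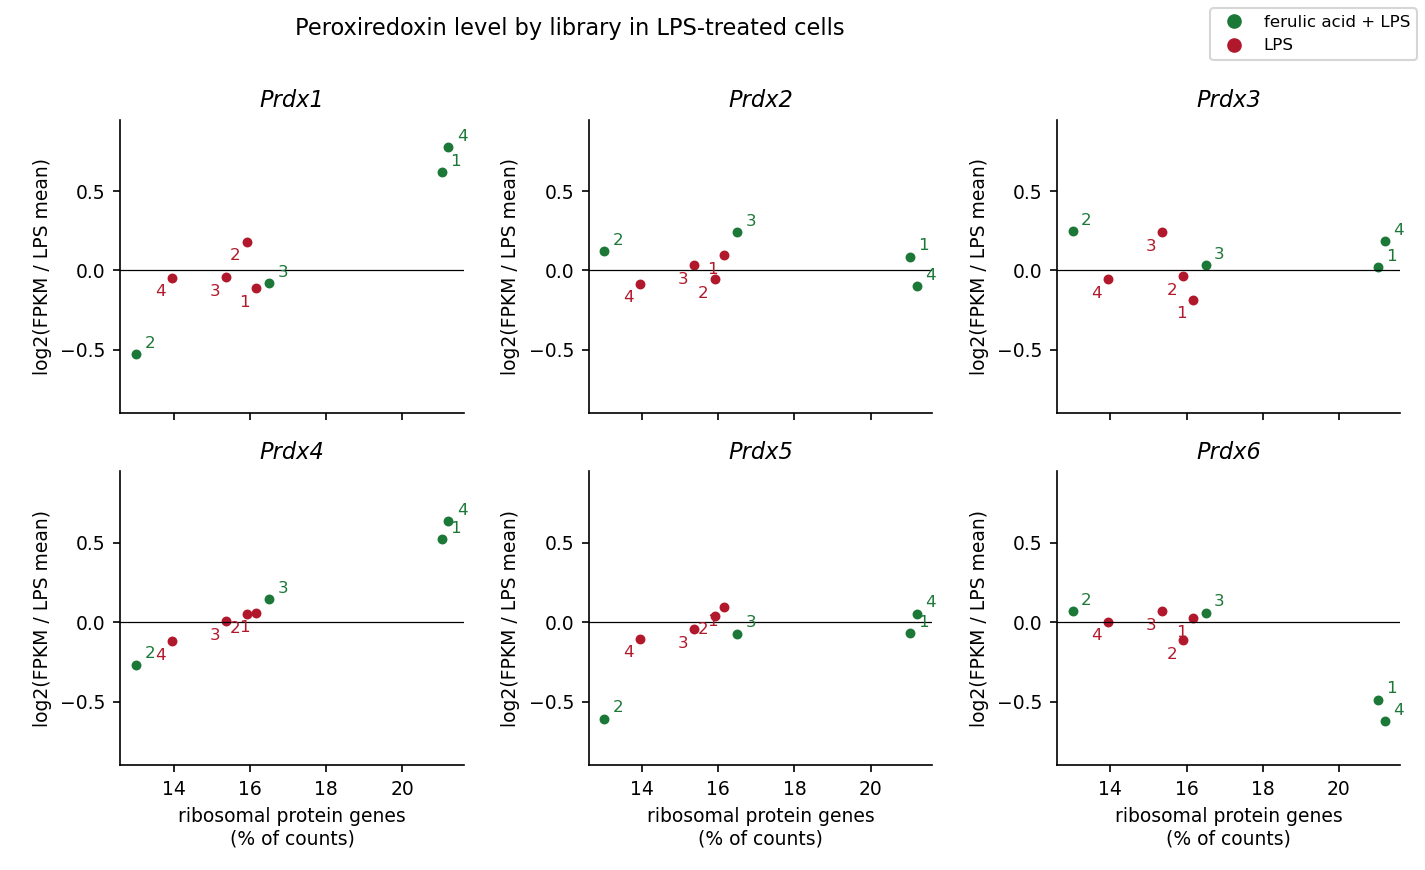
Each panel is 1 gene. The horizontal axis is the percent of counts from ribosomal protein genes and the vertical axis is the log2 of a library's FPKM over the mean of the LPS libraries, with green for ferulic acid plus LPS, red for LPS and digits for library numbers. For Prdx1 the ferulic acid plus LPS libraries run from -0.53 in library 2 to 0.78 in library 4, and for Prdx6 from 0.07 in library 2 to -0.62 in library 4.

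Within libraries, the share of Prdx4 in the family was the steadiest value of the ferulic acid plus LPS group. It was 5.21%, 5.17%, 5.08% and 5.12% of summed peroxiredoxin FPKM in libraries 1 to 4, against 4.61%, 4.29%, 4.53% and 4.29% in the LPS libraries. The groups did not overlap for this share, 1 of the 6 shares, and it carries no test. The log2 ratio of Prdx4 to Prdx5 was higher by 0.43 in ferulic acid plus LPS than in LPS libraries without overlap, and the other 14 of the 15 ratios between members overlapped. The share and this ratio both use the Prdx4 values. Of single genes tested, 6.31% did not overlap in FPKM, and no such figure was computed for shares or ratios. For Prdx1 the share was 47.9% ± 7.14 in ferulic acid plus LPS and 42.7% ± 2.42 in LPS libraries (SD, n = 4 each), and the exact two-sided permutation test gave p = 0.314 (0.429 adjusted over 3 comparisons). Libraries 1 and 4 with ferulic acid had Prdx1 shares of 53.7% and 54.5%, and libraries 2 and 3 had 41.6% and 41.9%.

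Against control libraries, cells given ferulic acid and LPS again had more Prdx5, Prdx1 and Prdx4 mRNA, by an amount that depended on the scaling. This comparison shares its libraries with the other comparisons, so the values are set side by side only. The edgeR log2 fold changes of ferulic acid plus LPS over control were 5.08 for Prdx5 (SE 0.22, adjusted p = 5.57e-12), 2.90 for Prdx1 (SE 0.29, adjusted p = 1.3e-07) and 1.99 for Prdx4 (SE 0.22, adjusted p = 5.7e-07). As log2 ratios of mean FPKM, Prdx5, Prdx1 and Prdx4 were at 4.14, 1.94 and 1.04. For Prdx4 the log2 ratio of mean TPM was 0.56, and the groups overlapped on that scale. Prdx2, Prdx3 and Prdx6 were at 0.65, 0.93 and 0.60 with TMM scaling and at -0.26, 0.02 and -0.29 with the library total. With TMM, 6 of 6 members were called higher, against 73.3% of all genes called in either direction and 35.8% called higher, and with the library total 3 of 6 were called against 76.8% of all genes.

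Thioredoxins and reductases return most peroxiredoxins to their reduced form, and sulfiredoxin rescues the overoxidised enzyme. Over all genes tested in LPS over control, 35.6% were called higher and 38.3% lower with TMM scaling, with a median of -0.10, and 17.5% and 59.0% with the library total, with a median of -0.99. The list counts below stand beside those shares. The recycling group listed here held 13 genes, which also took in Txnip, the sestrins, Gstp1 and Nxn. Of these 13, 12 were tested between LPS and control. With TMM scaling 5 rose and 3 fell, and the median log2 fold change was 0.39 beside -0.10 for all genes. With the library total 2 rose and 6 fell. Txn2, the mitochondrial thioredoxin, rose by 1.39 (SE 0.12, adjusted p = 2.48e-08) and Txndc17, a thioredoxin-like protein, by 2.45 (SE 0.15, adjusted p = 4.26e-10), both called with the library total too. The cytosolic thioredoxin Txn1, at 165 FPKM in LPS and 196 FPKM in control libraries, was 0.66 higher with TMM and -0.24 with the library total. Sulfiredoxin, Srxn1, was at 0.54 with TMM (adjusted p = 0.0188) and -0.35 with the library total, and the mitochondrial reductase Txnrd2 at 0.86 and -0.04. The cytosolic reductase Txnrd1 was not called under either, at 0.43 with TMM (adjusted p = 0.0617). Sesn1, a sestrin, fell by 2.94 (adjusted p = 7.7e-11). The other genes called lower with TMM were Txnip at -0.35 and Txnrd3 at -1.87, both named after their values were seen. Txnrd3 had only 0.179 FPKM in LPS and 1.21 FPKM in control libraries.

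Prdx4 works beside the enzymes that form disulfide bonds in the endoplasmic reticulum. Of 11 such genes 9 were tested, and 7 rose and 1 fell in LPS over control with TMM scaling, against 4 and 2 with the library total. The median was 1.27 with TMM and 0.38 with the library total. Qsox1, a sulfhydryl oxidase, rose by 2.21 and Pdia6, a protein disulfide isomerase, by 1.69, and both were called under both scalings.

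Other enzymes that remove peroxide or superoxide did not move in 1 direction. Of 8 such genes 6 were tested in LPS over control, with 4 higher and 1 lower under TMM scaling and 3 higher and 2 lower with the library total, and the median was 1.25 with TMM. Sod2, the mitochondrial superoxide dismutase that makes hydrogen peroxide, rose by 3.46 with TMM and by 2.56 with the library total, with 56.8 FPKM in LPS and 9.63 FPKM in control libraries. Gpx4, the glutathione peroxidase of lipid peroxides, rose by 1.91. Catalase, Cat, named after its values were seen, fell by 1.50 with TMM and by 2.39 with the library total, with 5.76 FPKM in LPS and 30.2 FPKM in control libraries. The peroxiredoxin-like genes and copies, 3 of 4 tested, had 0 higher and 1 lower, Prxl2a at -0.59 (adjusted p = 0.017), with TMM, and 2 lower with the library total, Prxl2a at -1.49 and Prxl2c at -1.08.

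Prdx1 is a known target of the transcription factor NRF2. Of 12 NRF2 targets and regulators 11 were tested in LPS over control, and 6 were higher and 3 lower with TMM scaling, against 3 and 4 with the library total. The median was 0.54 with TMM and -0.35 with the library total. Gclc, the catalytic subunit of the first enzyme of glutathione synthesis, was lower by 3.16 on the log2 scale, and Hmox1, haem oxygenase 1, was higher by 2.65. The other genes called lower with TMM stood in the list as regulators. They were Nfe2l2, which encodes NRF2 itself, at -1.63 and Keap1 at -0.81, both named after their values were seen. Of 5 genes of the receptors reported for extracellular peroxiredoxins and their adaptor Myd88, 2 rose and 3 fell with TMM, against 1 and 3 with the library total, and the median of -0.43 was that of Myd88. Tlr4 fell by 2.97 (adjusted p = 9.32e-08) and its coreceptor Cd14 rose by 1.85 (adjusted p = 1.07e-09).

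Between ferulic acid plus LPS and LPS, 1 gene of these 6 lists was called by edgeR with TMM scaling, where 0.284% of all genes tested were called. Hmox1 fell by 1.06 (SE 0.19, adjusted p = 0.0476), to 159.8 FPKM in ferulic acid plus LPS, against 331 FPKM in LPS, and it was not called with the library total (adjusted p = 0.0963). With only the 2 groups in the fit, or with a replicate block, 0 genes were called, so Hmox1 was not called there either. The recycling genes with the smallest p were Sesn2 at -0.78 (adjusted p = 0.0717) and Sesn1 at 0.53 (adjusted p = 0.0974). In the folding group they were Pdia3 at 0.68 (adjusted p = 0.0944) and Erp44 at 0.28 (adjusted p = 0.198). Txn1 was at 0.35, Txn2 at -0.13, Txnrd1 at -0.09, Txnrd2 at -0.04 and Srxn1 at -0.27 in ferulic acid plus LPS over LPS, none of them called. Tlr4 was at 0.71 (adjusted p = 0.156) and Tlr2 at 0.30 (adjusted p = 0.219). Among the other peroxide enzymes the smallest p belonged to Gsr at 0.31 and Cat at 0.13, and among the peroxiredoxin-like genes to Prxl2a at 0.21 and Prxl2c at -0.15.

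In ferulic acid plus LPS over control, with TMM scaling, 35.8% of all genes tested were called higher and 37.5% lower, and 18.0% and 58.8% with the library total. The recycling genes had 5 higher and 4 lower with TMM, and 2 and 6 with the library total, led with TMM by Txndc17 at 2.58 and Sesn1 at -2.41. In that comparison Txn1 was at 1.01, Txn2 at 1.26 and Txnrd2 at 0.82, all called with TMM, and Txnrd1 at 0.34 and Srxn1 at 0.27, not called. With the library total Txn2 was still called, at 0.35, while Txn1 at 0.08 and Txnrd2 at -0.10 were not, and Srxn1 was called lower at -0.60. The folding genes had 7 higher and 1 lower with TMM, and 4 and 2 with the library total, led by Qsox1 at 1.96 and Pdia3 at 1.70. The other peroxide enzymes had 4 higher and 1 lower with TMM, and 3 and 2 with the library total, led by Sod2 at 3.42 and Gpx4 at 1.96, and the peroxiredoxin-like genes had 0 called with TMM, with Prxl2a at -0.38 and Prxl2c at -0.32, and 2 lower with the library total. The NRF2 targets and regulators had 5 higher and 3 lower with TMM, and 4 and 6 with the library total, led by Gclc at -2.90 and Slc7a11, a cystine carrier, at 2.10. The 3 lower with TMM were Gclc and the regulators Nfe2l2 and Keap1. The receptor and adaptor genes had 2 higher and 3 lower with TMM, and 1 and 3 with the library total, led by Tlr4 at -2.25 and Cd14 at 1.92.

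Across the 12 libraries the pattern nearest to each member was sought over 7991 genes of sufficient level. The measure was the root mean square difference of mean-centred log2 CPM with TMM scaling. Prdx5, which itself varied by 2.42 around its mean, was nearest to Cfp at 0.129, Marcksl1 at 0.165 and Mrpl52 at 0.189. Prdx1 was nearest to Gm10269 at 0.103, Myl6 at 0.109 and Rps15a-ps7 at 0.113, of which Gm10269 and Rps15a-ps7 are gene models that may share reads with other copies. Prdx4 was near to Commd1 at 0.0710 and Dcun1d5 at 0.0886. The nearest gene was Polr2l for Prdx2 at 0.0631, Eif4a1 for Prdx3 at 0.0675 and Snrpa for Prdx6 at 0.0605. Likeness of this kind describes the 3 groups and these libraries only.

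Some reads could belong to other genes. In the GRCm38 annotation, 409 of the 2139 exonic bases of Prdx5 are shared with Trmt112 on the opposite strand, with the strand setting of the authors' counting not given in the sources used here. Trmt112 had 41.6 ± 1.10 FPKM in LPS and 93.1 ± 4.86 FPKM in control libraries (SD, n = 4 each), and its log2 fold change was -0.26 with TMM (adjusted p = 0.0689) and -1.16 with the library total (adjusted p = 1.69e-06). How far its reads entered the Prdx5 count was not tested. Prdx2 shares 173 of its 3050 exonic bases with Junb and 177 with Rnaseh2a, both on the opposite strand. Junb had a log2 fold change of 2.50 in LPS over control (adjusted p = 2.2e-09) and Rnaseh2a one of 0.16 (adjusted p = 0.346), both with TMM. With the library total they were at 1.59 and -0.74, and how far their reads entered the Prdx2 count was not tested. Of the copies in the table, Prdx2-ps1 had 192 reads over all 12 libraries and Prdx6b had 2 reads.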

How the data were processed

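Whole-number read counts per gene for 12 libraries were deposited without normalization, per the file headers. FPKM values by the authors stand beside them, per the file headers, and each was found to equal the count over 1 length per gene (within 0.1%) and over the library's total count. The submitters' processing notes name edgeR 3.36.0, DESeq2 1.34.0, featureCounts 2.0.6, HISAT2 2.2.1 and fastp 0.23.4 and build GRCm39, with no role or order, and the annotation release was not given in the sources used here. Oligo-dT beads isolated the mRNA, per the labels' protocols.

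In R 4.3.3, edgeR 4.0.16 (quasi-likelihood F test) was run for the 3 comparisons on the counts of all 12 libraries. It used TMM scaling, group as the only term, the filter of filterByExpr (14065 of 25192 genes) and Benjamini-Hochberg adjustment over all genes tested, with calls at an adjusted p under 0.05. Every adjusted p comes from it unless another tool stands beside the value. SE is the log2 fold change over the root of F, and intervals are 95%. The share of Prdx1 was compared with exact permutation tests, and the other shares were not tested. TPM was computed from FPKM. Alternatives included DESeq2 1.42.0, limma 3.58.1 on log2(FPKM + 1), and other scalings. Scripts were tested on simulated data.

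Groups followed the sample titles. All 6 members are named. From each list the 2 called genes with the largest change are named, or the 2 with the smallest p where none was called, and the recycling genes Txn1, Txn2, Txnrd1, Txnrd2 and Srxn1 always. The members and lists were chosen with earlier results of these data known. Of the table's genes, 91 have no symbol and were kept under their identifiers. Libraries of a group differed by a chi-square per gene of 11.6 or more, above sampling noise, and each counts as 1 replicate. One of the genes nearest in pattern to a member is not reported here. Promoters are from RefSeq.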

Additional observations from a re-analysis of the deposited data

Results flagged for a closer look

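The share of Prdx2 in the summed peroxiredoxin FPKM was 10.8% in control library 1, which lay apart from the other 3 control libraries at 9.70% to 9.84%. Of 54 sets of 4 libraries examined in this way, this was the 1 set with a library set apart, and chance alone sets about 1 in 20 apart.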

How the results depend on the processing

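Prdx1, Prdx4 and Prdx5 were called higher than in control under all 28 alternatives run, both after LPS and after ferulic acid plus LPS. Leaving out 1 library at a time kept 6 of 6 members called in both comparisons. Of all genes tested, 69.4% to 75.3% were then called in LPS over control and 68.8% to 74.4% in ferulic acid plus LPS over control. Prdx2, Prdx3 and Prdx6 changed sign or lost their call with scaling. In LPS over control, log2 fold changes for Prdx2, Prdx3 and Prdx6 were -0.36, -0.10 and -0.082 with the library total, -0.35, -0.11 and -0.080 with limma on log2(FPKM + 1), -0.35, -0.11 and -0.081 with log2(FPKM + 0.1), and -0.76, -0.52 and -0.49 with log2(TPM + 1), which was chosen after seeing the data. In ferulic acid plus LPS over control, Prdx2 and Prdx6 were -0.26 and -0.29 with the library total, -0.26 and -0.32 with either FPKM pseudocount, and -0.72 and -0.78 with TPM, where Prdx3 was -0.44. The count of members called was 3 in LPS over control with the library total without ribosomal protein and abundant genes, against 74.6% of all genes. It was 3 in ferulic acid plus LPS over control with the library total, against 76.8%. With a trend on gene length removed, Prdx3 was 0.26 in LPS over control (adjusted p = 0.0525).

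In ferulic acid plus LPS over LPS, 40 genes were called, against 2 with the library total, 1 without abundant genes, 920 with DESeq2, 719 with no filter on low counts, 71 with a filter of 10 CPM, 0 with only the 2 groups, 1 and 0 with log2(FPKM + 1) and log2(FPKM + 0.1), 1 with TPM, 91 with the length trend removed, 3400 with voom weights, 7 on leaving out libraries 1 and 4 with ferulic acid and 5664 on leaving out libraries 2 and 3. Leaving out 1 library gave 0 to 2670 genes: 1, 2670, 1415 and 5 without ferulic acid plus LPS libraries 1 to 4, 0 to 2 without an LPS library and 1 without any control library. Of the 6 members, 3 were called with voom weights, against 24.2% of all genes, and 3 without libraries 2 and 3, against 37.7%. On leaving out 1 library 0 to 2 members were called, against 0% to 18.4% of all genes. Prdx1 was 0.58 with voom weights, 0.82 without libraries 2 and 3, -0.38 without libraries 1 and 4, and 0.092 to 0.58 on leaving out 1 library. Prdx4 was -0.14 without libraries 1 and 4. Prdx5 was 0.015 with voom weights, 0.12 without libraries 2 and 3, 0.056 without library 2 and -0.24 to 0.056 on leaving out 1 library. The Prdx1 share, ferulic acid plus LPS minus control, was -3.39 percentage points of FPKM and 0.41 of counts. The cause of these changes was not tested, except that a setting with fewer libraries uses fewer samples.

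Libraries with the same number in different groups had correlations of deviations from -0.203 to 0.0838, none over 0.1, so the numbers are not treated as pairs. With a replicate block, 0 genes were called between ferulic acid plus LPS and LPS, 10041 in LPS over control and 9935 in ferulic acid plus LPS over control, and the members called numbered 0, 6 and 6. The smallest peroxiredoxin count in a library was 3383, and the part of sequencing depth was not tested.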

Other observations

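Ordered by log2 fold change in LPS over control, Prdx1 was 925th and Prdx4 2142nd of 14065 genes tested. Prdx3, Prdx6 and Prdx2 were at 4199th, 4118th and 4994th.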
